A study of Homo sapiens with 12 samples.

Results

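The comparison described here sets FOXA1 carrying the K295A substitution against wild-type (WT) FOXA1 in rescued LNCaP cells, a line from a human prostate tumour that responds to androgen, by chromatin immunoprecipitation and sequencing (ChIP-seq) with an antibody against the HA tag. Its members are the called HA peaks of 2 of the 12 libraries of the series, shFoxA1+WT and shFoxA1+K295A. In both, LNCaP cells had been infected 5 days earlier with a short hairpin against FOXA1 (shFoxA1) and an HA-tagged FOXA1, WT in one and K295A in the other, and the labels call the expression stable. Peaks sharing at least 1 base with a peak of the HA libraries without a tagged protein, the pGIPZ vector control and shFoxA1 alone, were left out, which removed 531 WT and 552 K295A peaks and kept 96589 and 81055. Merging these where they shared at least 1 base gave 110144 regions. A peak of each protein was present in 67500 of them. WT alone had a peak in 29089 (26.4%), K295A alone in 13555 (12.3%). None of the regions held more than 1 peak of either library. Endogenous FOXA1 in LNCaP cells given DMSO, the solvent control, for 7 days (2 libraries, antibody against FOXA1, no hairpin or tagged protein by the labels) served as a separate readout. Every HA condition has 1 library. Nothing below about K295A against WT therefore has a replicate check, no test between the proteins was run, and all intervals cover counting error only. The labels do not say whether the rescued cells are a pool or a clone, and the amounts of FOXA1 protein were not analysed here.

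FOXA1 is a forkhead transcription factor of luminal prostate cells. Its forkhead domain binds DNA, also in closed chromatin, and opens enhancers for the androgen receptor and other factors, for which it is called a pioneer factor. K295A replaces a lysine that lies after the forkhead domain with alanine, a residue whose side chain can be neither methylated nor ubiquitinated. The series title names FOXA1 protein stability and Polycomb as its subject. The question addressed here is where, and how strongly, the substituted protein was found on chromatin beside WT.

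Sequencing was about equally deep, with 13102175 tags for WT and 13275226 for K295A, so that 1 tag was worth 0.763 and 0.753 in the deposited normalized tag count, which scales every library to 10000000 tags. The tag threshold of the peak caller was 10 for WT and 11 for K295A, or 7.63 and 8.29 normalized. The lowest peak score in the lists was 10 and 11 accordingly, while the tags recovered from the normalized tag count went down to 8 in both. The caller gave peaks 1 width per library, 305 bases for WT and 299 for K295A, with 4 and 5 exceptions. The width of single peaks therefore carries no information on the proteins. Before the local filter there were 104422 putative peaks with WT and 86499 with K295A, of which the filter removed 6.97% and 5.63%. It requires a fold of 4 over the surrounding 10000 bases and sets a Poisson limit, and the headers do not count removals by each.

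Strong sites were nearly always shared, and weak sites often were not. The share of peaks also called with the other protein climbed with peak strength in both lists and was above 99% from a normalized tag count of 50 upward. Among WT peaks under 10, 34.0% overlapped a K295A peak (95% exact Clopper-Pearson interval 33.3 to 34.7). The share was 44.4% at 10 to 12, 59.0% at 12 to 15, 81.0% at 15 to 20 and 94.7% at 20 to 30. At 30 to 50 it reached 99.0% (98.8 to 99.2). K295A peaks were found in the WT list more often at the same strength, with 58.5% under 10 (57.5 to 59.4), 75.8% at 12 to 15, 89.6% at 15 to 20 and 96.9% at 20 to 30. The K295A share was the higher one in 7 of the 8 strength bins. The WT list in which K295A peaks were sought was longer, with 96589 against 81055 peaks. It also had the lower tag threshold, 10 against 11. Shares by bin at equal thresholds or equal list lengths were not computed, so these shares do not compare the proteins alone. Up to 30 normalized tags each bin holds the same range of whole tags in both libraries, such as 16 to 19 tags in the bin of 12 to 15.

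Peaks seen with a single protein were almost all weak. Of the 29089 WT peaks without a K295A peak, 96.6% had a normalized tag count under 20, and so had 96.0% of the 13555 K295A peaks without a WT peak. Of the whole lists, 66.6% and 64.4% lay under 20. At 20 or more, 993 of 32303 WT peaks (3.07%, 2.89 to 3.27) and 546 of 28841 K295A peaks (1.89%, 1.74 to 2.06) stood alone. At 50 or more it was 21 of 5109 and 16 of 4308. The median peak had 20 tags with WT and 21 with K295A. The excess of WT regions depended on the thresholds of the caller: with a peak score of at least 11 required in both lists, 21513 regions were called with WT alone and 16313 with K295A alone. With equal numbers of the strongest peaks from each list there were 18610 of each, equal by construction.

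The files hold 1 pair of libraries with the same treatment, the DMSO replicates of the FOXA1 antibody, and they were compared in the same way, a choice made after the values were seen. Of the peaks of DMSO replicate 1, 80.6% overlapped replicate 2, and 70.0% in the other direction, where K295A and WT gave 83.3% and 69.9%. In the bin of 12 to 15 the DMSO shares were 66.2% and 62.9%, between the 59.0% of WT and the 75.8% of K295A. At 20 to 30 they were 91.2% and 90.2%, below both HA lists. The DMSO libraries differ from each other in fragment length (274 and 220 bases), peak width and depth, were filtered against an input, and used another antibody. They show how far libraries of 1 treatment can differ in these files and are not replicates of the HA conditions.

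**Figure D1:**
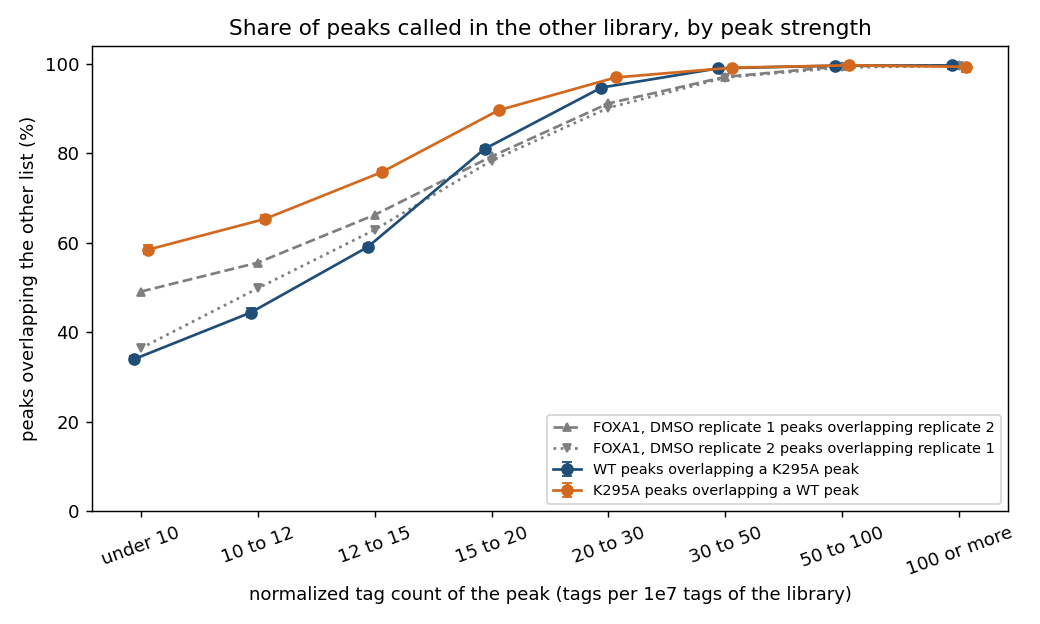
Share of peaks that share at least 1 base with a peak of the other library (vertical axis, %) in 8 bins of the peak's own normalized tag count (horizontal axis), for WT (blue) and K295A (orange) with 95% exact intervals, and for the DMSO FOXA1 replicates in grey. All curves climb from weak to strong peaks, from 34.0% for WT and 58.5% for K295A under 10 to over 99% at 50 or more.

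At shared regions K295A carried nearly as many tags as WT. The median normalized tag count was 19.1 for WT and 17.3 for K295A, and the median ratio of K295A over WT per region was 0.940, a log2 ratio of -0.090 with quartiles of -0.38 and 0.21. K295A was below WT at 58.8% of the regions. It was at least 2-fold lower at 1552 of 67500 regions (2.3%) and at least 2-fold higher at 627 (0.929%), together 3.23%. That balance depended on the scaling: with the ratios centred on their median, 1.40% were at least 2-fold lower and 1.61% higher, and per 300 bases of the width used by the caller, 1.93% and 1.24%. Between the DMSO replicates, which differ in peak width, the same limits were passed at 7.94% of 57050 shared regions, 6.25% in one direction and 1.68% in the other. There the distance between the quartiles of the log2 ratio was 0.71, against 0.59 for K295A and WT. With the counting error of the tags of each region taken into account, the 95% interval of the ratio lay below 1 at 3694 regions (5.47%) and above 1 at 1317 (1.95%).

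The spread of the ratio was widest at 12 to 15 and narrowed from there toward stronger regions. With regions ordered by the geometric mean of both tag counts, the distance between the quartiles was 0.47 under 10, 0.62 at 10 to 12, 0.72 at 12 to 15, 0.58 at 20 to 30, 0.39 at 50 to 100 and 0.30 at 100 or more. The median log2 ratio was -0.027 at 10 to 12, -0.092 at 12 to 15, -0.11 at 20 to 30, -0.082 at 50 to 100 and -0.059 at 100 or more. The lowest median was -0.14, at 15 to 20. Only the regions under 10 had a positive median, 0.096. The calling thresholds there were unequal, 7.63 normalized for WT and 8.29 for K295A, and their part in this sign was not tested. Regions at least 2-fold apart made up 0.617% under 10, 2.10% at 10 to 12, 5.38% at 12 to 15 and 5.21% at 15 to 20. A shared region needs a called peak in both libraries, which limits how far apart the counts of the weakest regions can be. The low values under 12 therefore do not show closer agreement there. At 50 to 100 there were 4 such regions among 4002, all lower with K295A, and at 100 or more there were 0 among 480.

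How regions are ordered decides the apparent trend. Ordered by the WT tag count alone, the median log2 ratio ran from 0.37 under 10 to -0.22 at 20 to 30 and -0.14 at 100 or more. Ordered by the K295A tag count it ran from -0.43 under 10 to -0.017 at 20 to 30 and 0.010 at 100 or more. Ordering by the library that is then compared places its own counting error on the axis. The DMSO tag count, which comes from other libraries, does not do so. It was available for the 36881 of 67500 shared regions called in both DMSO libraries, and the 30619 left out had a median of -0.13. Ordered by the DMSO tag count, the medians lay between -0.086 (10 to 12) and -0.020 (100 or more) over all 8 bins. From 15 to 20 upward they rose with each bin, through -0.081, -0.057, -0.049, -0.034 and -0.020. All 8 were below 0 and each was small beside the quartiles of its bin.

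**Figure D2:**
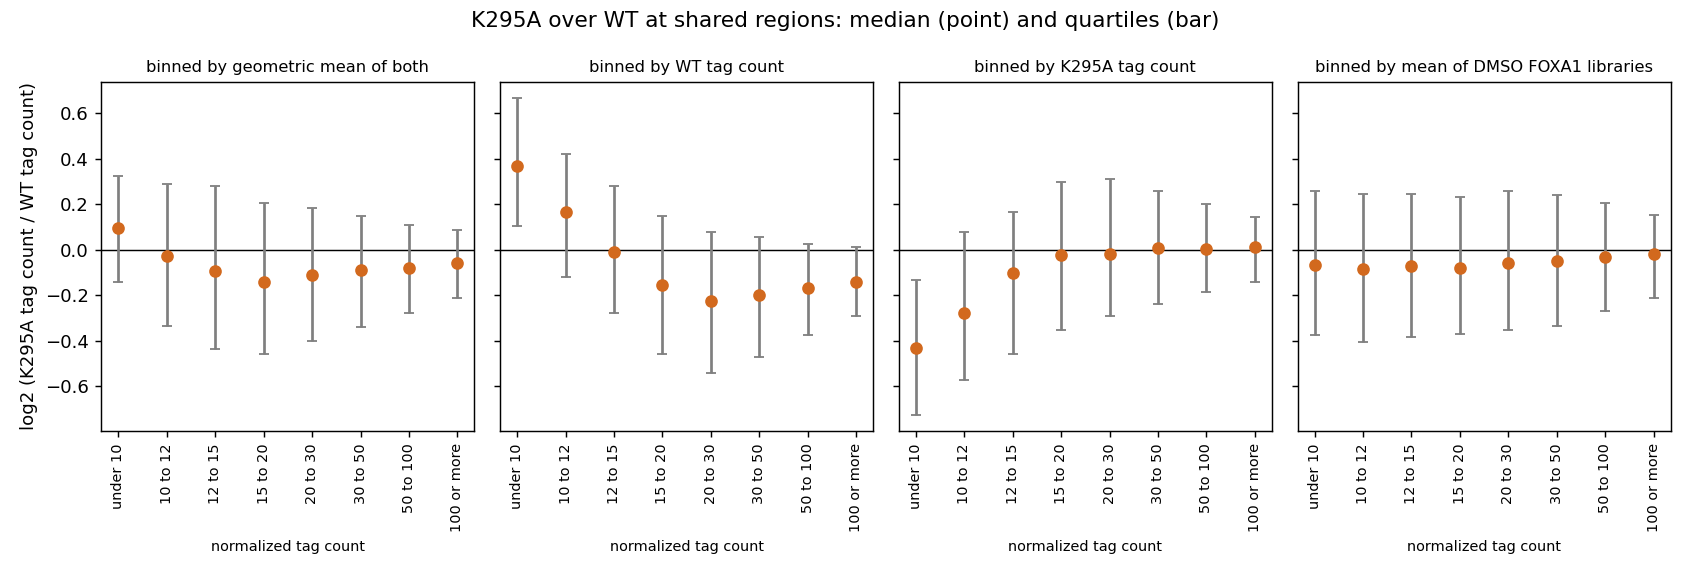
Log2 ratio of the K295A over the WT normalized tag count at shared regions (vertical axis; points are medians, bars reach the quartiles) in bins of tag count, with the bins taken from both libraries, WT, K295A or the DMSO FOXA1 libraries (panels from left to right). The median falls from 0.37 to -0.22 up to the WT bin of 20 to 30, climbs from -0.43 to 0.010 across bins of K295A, and is close to level, between -0.086 and -0.020, across bins of the DMSO libraries. The DMSO panel holds only shared regions called in both DMSO libraries.

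Regions that were also sites of endogenous FOXA1 showed the smaller difference. Among the 36650 shared regions on chromosomes 1 to 22 and X that were called in both DMSO libraries, the median log2 ratio was -0.050, with 1.54% at least 2-fold lower and 1.01% at least 2-fold higher with K295A. At the 30619 shared regions not called in both DMSO libraries it was -0.13, with 3.19% lower and 0.833% higher. The regions outside the DMSO calls were the weaker ones, with a median WT tag count of 16.8 against 22.9. Regions at least 2-fold lower with K295A had a peak in each DMSO library at 37.0%. For those at least 2-fold higher this share was 59.3%, and for those within 2-fold 55.0%.

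The strongest HA regions that were also sites of endogenous FOXA1 carried both proteins within 2-fold. Strength here is the geometric mean of the WT and K295A tag counts, and of the 5 strongest regions called in both DMSO libraries, 4 had ratios of 0.842 to 0.957. The lowest was at chr18:70856973-70857284, with a normalized tag count of 259.5 for WT and 218.5 for K295A, beside 261.1 and 369.8 in the DMSO libraries, a ratio of 0.842 (95% counting interval 0.717 to 0.988). At chr15:69887033-69887337 the HA values were 279.3 and 267.4, a ratio of 0.957 (0.825 to 1.11), and DMSO gave 573.3 and 435.4. K295A was the higher one only at chr2:242032828-242033155, with a ratio of 1.28 (1.097 to 1.497). The counting interval left out 1 at this region and at the one on chromosome 18. Around the genome-wide median ratio, the regions with the most tags included chr1:145246205-145246511, where WT gave 232.8 and K295A 220.7 (ratio 0.948, 0.805 to 1.12). The peak centres there lay 5 bases apart. At chr20:58628463-58628808 the values were 221.3 and 207.9 (ratio 0.939, 0.794 to 1.11).

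Single sites of endogenous FOXA1 with far less K295A were found on several chromosomes. The 6 for which the counting interval lay farthest below 1 had ratios of 0.287 to 0.435. At chr10:916820-917129 WT gave 44.3 and K295A 13.6, from 58 and 18 tags, a ratio of 0.307 (0.170 to 0.527), and the fold over the local window was 26.4 with WT and 12.4 with K295A. Endogenous FOXA1 was weak there, with 11 and 10.4. The strongest of the 6 was chr20:9102494-9102820, with 103.8 for WT and 45.2 for K295A, a ratio of 0.435 (0.316 to 0.594), where DMSO gave 24.1 and 29.6. At this site the WT value stood far above both the K295A and the DMSO values. The DMSO libraries were closer to WT at chr1:207924262-207924593, with 54.8 and 58.1 beside a WT value of 50.4 and a K295A value of 16.6 (ratio 0.329, 0.193 to 0.540). A similar picture held at chr16:29751540-29751864, where WT gave 50.4, K295A 18.1 (ratio 0.359, 0.215 to 0.580) and DMSO 76.8 and 84.8. The remaining regions of the 6 were chr13:91999740-92000111 (36.6 for WT, 10.5 for K295A) and chr18:13291117-13291501 (39.7 and 12.1).

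Single sites of endogenous FOXA1 with far more K295A were found as well. The 6 with the interval farthest above 1 lay on 5 chromosomes and had ratios of 2.53 to 3.84. At chr7:39747547-39747895 WT gave 24.4 and K295A 61.8, from 32 and 82 tags, a ratio of 2.53 (1.66 to 3.93). The fold over the local window was 18.6 and 54.3, and DMSO gave 59.2 and 36.6. At chr3:54933290-54933640 K295A exceeded WT by 45.2 to 14.5 (ratio 3.12, 1.83 to 5.53), and the DMSO libraries themselves differed there, with 47.5 and 12.8. At chr10:31393800-31394116 endogenous FOXA1 gave 73.9 and 56.9, K295A 32.4 and WT 9.92, from 43 and 13 tags (ratio 3.27, 1.72 to 6.62). WT was near its calling threshold at chr5:166805919-166806226 (9.92 against 31.6 for K295A) and at chr12:103085967-103086330 (8.40 against 27.9). At chr12:94082943-94083537 the ratio of 3.84 compares peaks whose centres lay 293 bases apart, so the values are not of one summit. These 12 regions were picked from both ends of 36650 by the ratio itself, so their values are a description and no evidence of a difference.

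At shared regions the peaks of both proteins had their centres close together, and the more closely the stronger the region. A region is shared only where peaks of 305 and 299 bases overlap, which by construction limits how far apart the centres can lie. The centres of the WT and K295A peaks lay a median of 34 bases apart over all shared regions (quartiles 15 and 64), with 89.7% within 100 bases. The distance was 49 bases under 10, 37 at 15 to 20, 26 at 30 to 50 and 16 at 100 or more. It had no direction, with a median signed distance of 0. The DMSO replicates gave a median of 28 bases. Merged shared regions were accordingly 336 bases wide at the median and narrowed from 351 bases under 10 to 318 at 100 or more. Centres over 150 bases apart were found at 2132 regions (3.16%). The focus ratio, the share of tags that lie where a single binding event would place them by the strand of the read, was 0.855 with WT and 0.853 with K295A.

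The surroundings of shared peaks were also alike. The fold over the local window, the deposited ratio of tag density in the peak to that of the 10000 bases around it, had a median of 15.4 with WT (quartiles 10.2 and 23.4) and 14.9 with K295A (10.1 and 22.3). Per region, the median log2 ratio of these folds was -0.040 (K295A over WT). It was -0.080 at 15 to 20 and -0.018 at 100 or more. Dividing the tag count by this fold gives the tags of a peak-sized stretch of the surroundings, and there the median log2 ratio was -0.048. This stretch was 305 bases long for WT and 299 for K295A, and the value was not corrected for that. Per 300 bases, the median log2 ratio of the peak tag counts moved from -0.090 to -0.066. The lower K295A tag count at shared regions thus came with a lower fold over the surroundings. How far the surroundings themselves were lower at equal width was not computed.

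Among peaks of 20 or more, those without a partner differed from the others in where they lay. They were also weaker within this range, with a median tag count of 22.9 against 30.5 for WT and 23.4 against 30.1 for K295A. WT peaks of this strength that stood alone had a median local fold of 11.6 (quartiles 6.62 and 18.5), against 21.7 for those overlapping a K295A peak. For K295A the medians were 9.73 and 21.8. Within the bin of 20 to 30 they were 11.8 and 18.1 for WT and 9.76 and 18.1 for K295A. The peak-sized stretch of surroundings held a median normalized count of 2.25 around lone WT peaks and 1.51 around overlapping ones, and 2.61 and 1.48 for K295A. Their next peak in the same library was also closer, at 4138 bases against 7715 for WT and 3601 against 8785 for K295A. Such lone peaks had a peak of the other library within 1000 bases, edge to edge, in 384 of 993 cases for WT (38.7%, 35.6 to 41.8) and in 299 of 546 for K295A (54.8%, 50.5 to 59.0). At 50 or more it was 13 of 21 and 9 of 16. At 20 or more, median focus ratios were 0.833 for lone and 0.875 for overlapping WT peaks, and 0.818 and 0.877 for K295A. The gap was wider between 30 and 50, where 110 WT and 85 K295A peaks stood alone. Focus ratios there were 0.746 and 0.788 for lone WT and K295A peaks and 0.878 and 0.882 for overlapping ones. In local fold, weak lone peaks differed little: at 12 to 15 it was 11.4 for lone and 11.8 for overlapping WT peaks, and 11.1 and 11.8 for K295A. The next peak was still closer to lone peaks at 12 to 15, at 8022 against 8892.5 bases for WT and 8511 against 10418 for K295A. Among the few lone peaks of 50 or more it was farther, at 8999.5 against 8519 bases for WT and 11497.5 against 9152 for K295A. A peak that has a rich neighbourhood is closer to the required 4-fold, and whether the missing partner was removed by that filter was not tested.

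**Figure D3:**
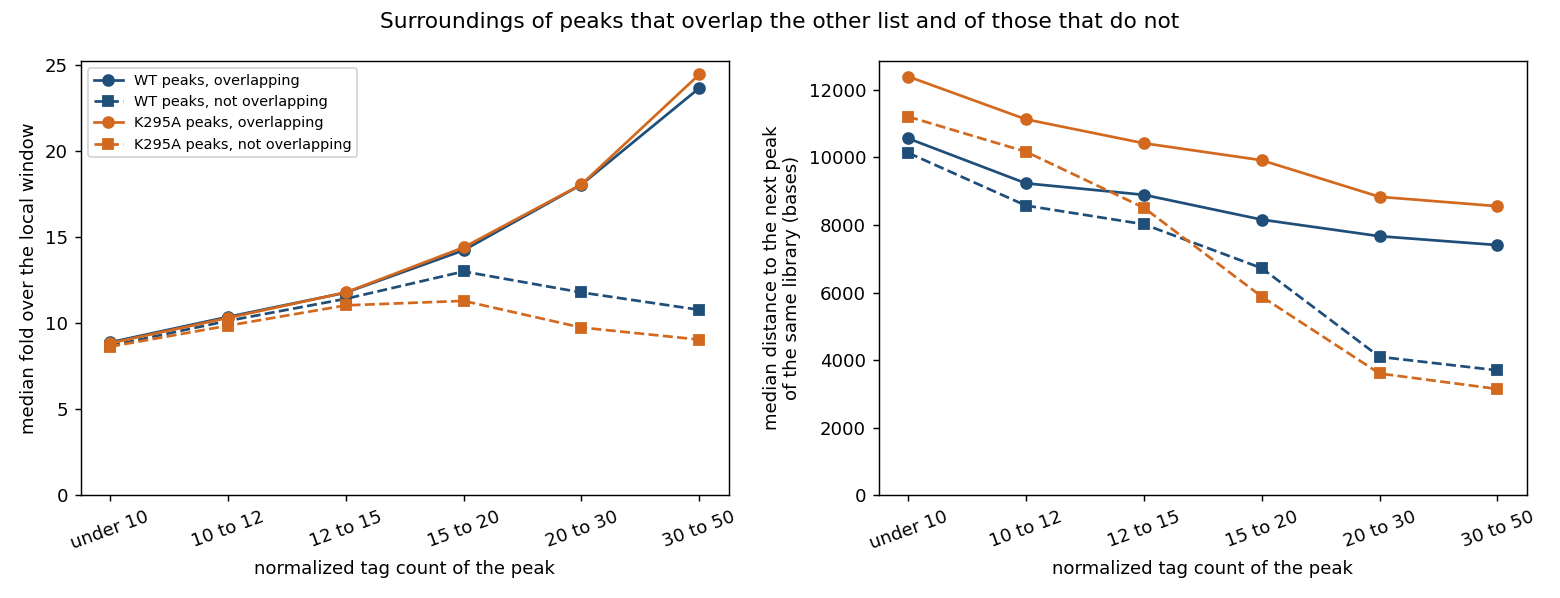
Median fold over the local window of 10000 bases (left) and median distance in bases to the next peak of the same library (right) in 6 bins of normalized tag count, for WT (blue) and K295A (orange) peaks that overlap the other list (solid) or do not (dashed). The curves nearly coincide for fold at weak peaks and part from 15 to 20 upward, with lone peaks at lower fold and closer to their neighbours.

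Of the lone peaks that were also sites of endogenous FOXA1, the strongest lay close to the local filter. The 4 strongest WT peaks called in both DMSO libraries, with no K295A peak within 1000 bases, had normalized tag counts of 32.8 to 43.5 and local folds of 4.11 to 7.12. At chrX:115001519-115001823 WT gave 43.5 from 57 tags, with 80.4 and 43 in the DMSO libraries and a local fold of 4.11, just above the required 4. At chr13:63640081-63640385 WT gave 38.2 with a local fold of 7.12, and DMSO 24.9 and 24.4. At chr16:77753740-77754044 it gave 35.1 and at chr5:57373182-57373486 it gave 32.8. K295A has no value at these sites, since the files list called peaks only.

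The strongest K295A peaks of the same kind had tag counts of 38.4 to 48.2 and local folds of 4.49 to 6.14. At chr1:205678163-205678461 K295A gave 48.2 from 64 tags, with 51.9 and 52.2 in the DMSO libraries and a local fold of 4.77. At chr15:89637407-89637705 it gave 45.2 with a local fold of 6.14, where the DMSO values were 113.3 and 61. The others were chr3:71256032-71256330 with 46 and chr3:175272524-175272822 with 38.4. Peaks of the other protein lay 1177 to 4267 bases from these 8 lone peaks.

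Regions called with K295A alone were sites of endogenous FOXA1 more often than those called with WT alone. Of the shared regions, 54.6% (54.3 to 55.0) were called in both DMSO libraries, of the regions called with K295A alone 26.5% (25.8 to 27.2) and of those called with WT alone 18.2% (17.7 to 18.6). The order was the same within strength bins. Strength is the geometric mean of both tag counts for shared regions and the count of the calling library for lone regions. Shared and lone regions in the same bin are therefore not matched in strength over both libraries. Under 10 the shares were 34.6% for shared regions, 23.0% for K295A alone and 16.2% for WT alone. At 15 to 20 they were 48.3%, 36.0% (33.8 to 38.3) and 23.0% (21.6 to 24.4). At 20 to 30 they were 60.7%, 39.8% (35.2 to 44.5) and 23.2% (20.4 to 26.2). K295A alone lay above WT alone in all 8 bins. The intervals treat regions of 1 library per protein as trials and do not measure the spread between preparations. The tag threshold was 11 for K295A and 10 for WT, and these shares were not computed at equal thresholds. The bins of 50 or more hold few lone regions, 21 for WT and 16 for K295A. Leaving out lone regions with a peak of the other protein within 1000 bases gave 27.0% of 11187 regions for K295A and 18.4% of 26138 for WT. Where they were called in both, lone regions were weaker sites of endogenous FOXA1 than shared regions. The median DMSO tag count was 17.4 for K295A alone and 16.6 for WT alone, against 28.6 for shared regions. Over their whole lists the DMSO libraries had medians of 19.7 and 15.7, so lone regions were near the usual DMSO peak. With 1 library each, a difference between the proteins and one between the preparations cannot be told apart.

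**Figure D4:**
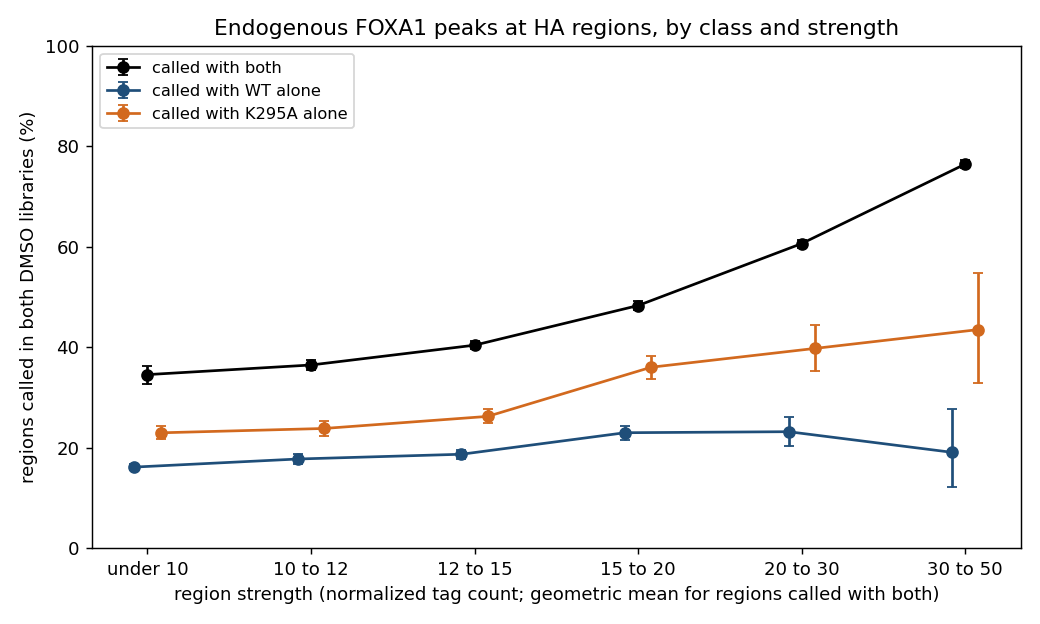
Percent of HA regions called in both DMSO FOXA1 libraries (vertical axis, 95% exact intervals) in 6 bins of region strength (horizontal axis, normalized tag count), for regions called with both proteins (black), WT alone (blue) or K295A alone (orange). Strength is the geometric mean of both tag counts for regions called with both, and the count of the calling library for the others. K295A alone lies above WT alone in each bin shown, 39.8% against 23.2% at 20 to 30.

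The comparison gave similar values along the genome, and the lowest overlaps were on the chromosome with the weakest peaks. Over chromosomes 1 to 22 and X, the number of K295A peaks per 100 WT peaks lay between 79.0 (chromosome X) and 86.0 (chromosome 7). The share of WT peaks overlapping a K295A peak was 67.5% (chromosome 22) to 71.7% (chromosome 8) on the autosomes and 63.1% (60.9 to 65.1) on X. K295A peaks overlapped a WT peak in 81.9% (chromosome 19) to 84.4% (chromosome 8) of cases on the autosomes and in 79.8% on X. Peaks on X were weak in both libraries, with a median tag count of 13 for WT and 13.6 for K295A, where autosomes had 14.5 to 16 and 15.1 to 16.6. Applying the genome-wide share of each strength bin to the peaks of X gave 62.7% for WT and 79.4% for K295A, within 0.39 and 0.44 percentage points of the observed values. Over the 23 chromosomes such departures ran from -1.57 points (chromosome 22) to 1.02 points (chromosome 15) for WT and from -1.02 points (chromosome 7) to 1.14 points (chromosome 2) for K295A. On X itself, 59.95% of WT peaks of 12 to 15 overlapped a K295A peak, against 59.0% on the autosomes, and 96.1% against 94.7% at 20 to 30.

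The tag count ratio was just as even along the genome. The median log2 ratio of K295A over WT at shared regions was below 0 on all 23 chromosomes, from -0.11 on chromosome 15 to -0.075 on X. Each of the 23 held more regions at least 2-fold lower than at least 2-fold higher with K295A. The chromosomes share the scaling of the same libraries and are not separate observations. With all ratios centred on their median, 1.40% of shared regions were at least 2-fold lower and 1.61% higher. Regions called with WT alone outnumbered those called with K295A alone by 1.93 (chromosome 7) to 2.34 times (chromosome 12) at the unequal thresholds of the deposited lists. Sequences outside these 23, mostly unplaced contigs and Y, held 689 WT and 565 K295A peaks, with shares of 66.2% and 80.7% overlapping the other list and a median log2 ratio of -0.069.

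**Figure D5:**
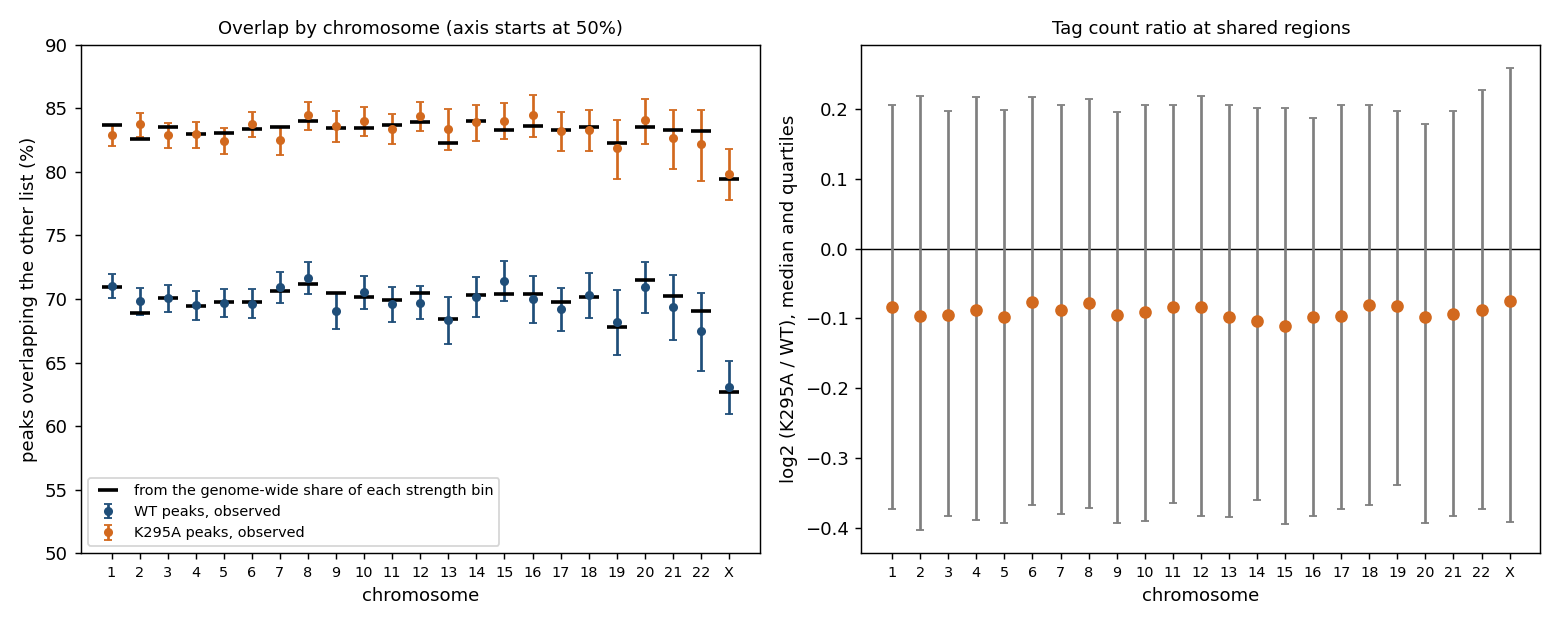
Left, percent of WT (blue) and K295A (orange) peaks overlapping the other list on each chromosome, with 95% exact intervals, and the value given by the genome-wide share of each strength bin (black dashes); the axis starts at 50%. Right, median log2 ratio of K295A over WT tag count at shared regions with quartiles as bars. Chromosome X is lower in both lists, 63.1% and 79.8%, and its black dashes are lower as well, at 62.7% and 79.4%.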

How the data were processed

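Per the submitters' processing notes, reads were processed with Bowtie2 and HOMER 4.2 on hg19. Each library has its own peak list, made by findPeaks with its factor style per the file headers. The headers give a false discovery rate of 0.001, a required fold of 4 over the surrounding 10000 bases and a Poisson p of 0.0001 for it. No input library is named for the HA lists. The deposited normalized tag count is a signal value, the tags of the peak scaled to a library of 10000000. Multiplied by the library total in the file headers it gave whole tags for 100% of peaks within rounding of the printed values, and these tags were used only for counting intervals. The fold over the local window is the authors' deposited ratio, the focus ratio a deposited fraction, and the deposited findPeaks score served for the stricter threshold of 17, the median over both lists.

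From these lists, overlaps, regions, ratios and bins were computed with Python 3.11.15, pandas 2.3.3, numpy 2.4.6 and scipy 1.17.1. Strength bins have edges at 10, 12, 15, 20, 30, 50 and 100 normalized tags. No pseudocount was used. Intervals are exact at 95%, and the ratio interval is conditional on the tags of a region in both libraries. The steps were tested on simulated data. With 1 library per HA condition no test was run. The members, lists and comparisons were chosen with earlier results of these data known. Regions named in the text were chosen by rule among those on chromosomes 1 to 22 and X called in both DMSO libraries: the 5 strongest shared, the 6 with the ratio interval farthest below and above 1, the 4 strongest of each protein alone with no peak of the other within 1000 bases, and the 4 with most tags within 0.05 of the median log2 ratio. Genes and sequences at the regions were not analysed here, and FOXA1 libraries of compound treatments were not used here.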

Additional observations from a re-analysis of the deposited data

How the results depend on the processing

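Of 90 recomputed values, 45 stayed within counting error of the main value or, for counts, within 1.5 times of it. With the stricter score, 81.9% of K295A and 76.3% of WT peaks overlapped the other list, and 36554 regions were called with both, 11340 with WT alone and 8062 with K295A alone, with 1.01% of shared regions at least 2-fold lower and 0.243% higher. With the higher tag threshold in both lists the shares were 79.9% and 75.1% and the median log2 ratio -0.10, with 21513 regions for WT alone and 16313 for K295A alone. With equal numbers of the strongest peaks both shares were 77.0%, with 18610 regions for each protein alone by construction, a median of -0.12 and 0.464% of shared regions at least 2-fold higher. Reciprocal overlap of 50% gave 80.6% and 67.6%. Centres within 100 bases gave 74.7% and 62.7%, with 20489 regions called with K295A alone. Centring sets the median to 0 and gave 1.40% at least 2-fold lower and 1.61% higher, so the balance of 2-fold calls depends on the scaling. Tags per 300 bases gave a median of -0.066. A pseudocount of 5 gave -0.071, with 0.441% lower and 0.153% higher, and one of 1, added after seeing the data, changed no value beyond these limits. Keeping untagged peaks or only chromosomes 1 to 22 and X changed none either.

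Under 15, the median log2 ratio was -0.022 by the geometric mean, 0.16 in bins of WT, -0.23 in bins of K295A and -0.075 in bins of DMSO. At 50 or more it was -0.080, -0.17, 0.0029 and -0.028. The bins of DMSO hold only shared regions called in both DMSO libraries. Bins of WT or K295A put the counting error of the compared library on the axis. By construction this shifts the medians of weak and strong regions in opposite directions. The sign was reversed under 15 in bins of WT and at 50 or more in bins of K295A. Requiring 1 DMSO library in place of both gave 58.0% to 64.2% for shared regions, 23.3% to 28.3% for WT alone and 32.8% to 38.8% for K295A alone. The median local fold of overlapping over lone peaks was 1.54 for WT and 1.52 for K295A. It was 1.02 and 1.02 under 10, 1.03 and 1.07 at 12 to 15, and 1.85 for K295A at 20 to 30. With the stricter score 67.9% of WT peaks on X overlapped a K295A peak. No paired analysis was possible because each HA condition has 1 library and no test was run. Depth limits the precision at the weak end, where peaks hold 8 to 13 tags, and its part in the lone calls there was not tested.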
